A study of Mus musculus with 12 samples.

Results

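Chemokines are small secreted proteins that guide migrating leukocytes, and their receptors are 7-transmembrane proteins coupled to inhibitory G proteins. The family described here holds every gene whose symbol is that of a CC, CXC, CX3C, or XC chemokine, of a conventional chemokine receptor, or of a numbered atypical receptor. By this rule, 70 of the 52636 genes in the count table were members: 47 chemokines, 19 conventional receptors, and 4 atypical receptors, with 65 distinct symbols. The measurements were bulk RNA-seq of GFP-sorted aortic smooth muscle cells (SMCs) from 12-week-old male mice. Their strains had been bred to a C57BL/6J background over several generations. All animals carried *Myh11-CreERT2*, a tamoxifen-activated Cre recombinase under the promoter of smooth muscle myosin heavy chain, and *mT/mG*, a reporter that turns from red to green fluorescence after recombination, and all received tamoxifen for 5 days. The 3 GFPiSMC mice had intact TGF-β receptors, and the 3 Tgfbr1/2iSMCKO mice had in addition floxed alleles of *Tgfbr1* and *Tgfbr2*, encoding the type I and type II TGF-β receptors. Each animal gave 1 library from the ascending aorta and arch and 1 from the descending thoracic aorta, so each of the 4 groups of genotype and segment held 3 of the 12 libraries. Deletion in adult mice used tamoxifen at 2 mg/d from 11 weeks of age, and the description of these cells as taken 1 week later places them on that schedule, although the labels also name 1 mg/d from 4 weeks.

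In an artery, chemokines from the wall recruit blood leukocytes after injury. *Cxcl12* is made by many stromal and vascular cells and acts through *Cxcr4*, while the atypical receptor *Ackr3* binds the same ligand, does not couple to G proteins in the usual way, and removes it from the surroundings by internalization. *Ackr4* scavenges CCL19, CCL21, and CCL25, ligands of *Ccr7* and *Ccr9*. *Cx3cl1*, or fractalkine, is a chemokine tethered to the membrane that binds *Cx3cr1* on monocytes and macrophages.

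Libraries held 20467027 to 31392396 counts (median 27351101) from 9208 to 20000 sorted cells. The 6 smooth muscle markers (*Myh11*, *Acta2*, *Tagln*, *Cnn1*, *Smtn*, and *Myocd*) summed to 32911 to 46872 CPM (counts relative to the TMM-scaled library size) in every library, and none of them was called between genotypes. *Tgfbr1* lay at 196 to 292 CPM in GFPiSMC and 198 to 295 CPM in Tgfbr1/2iSMCKO libraries (log2 fold change 0.10, edgeR adjusted p = 0.790). *Tgfbr2* lay at 88.9 to 127.7 CPM and 68.2 to 102.0 CPM (log2 fold change -0.26, adjusted p = 0.233). Counts summed over a gene do not separate the floxed exons from the rest, so these values do not check the deletion. Immediate early genes, which rise during cell isolation, summed to 214 to 1077 CPM. None of the 8 was called between genotypes, but their median log2 fold change was -0.67. In the ascending/arch they summed to 270 to 735 CPM in GFPiSMC and 215 to 767 CPM in Tgfbr1/2iSMCKO libraries. The descending segment held 283 to 1077 and 214 to 507 CPM. Their part in the genotype differences was not tested.

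Most of the family was scarcely present. A filter on low counts left 30 of the 70 members for testing: 16 of 47 chemokines, 12 of 19 receptors, and 2 of 4 atypical receptors. Of the other 40, 9 had no count in any library, 7 of them on unplaced scaffolds that carry further copies of *Ccl19*, *Ccl21*, and *Ccl27* genes, and the remaining 31 never exceeded 35 counts in a library. A total of 3 counts, the limit that a count of 0 allows, equalled 0.0966 to 0.146 CPM depending on the library. Among the tested members, 4 had a mean of at least 5 CPM over the 12 libraries, 7 lay between 1 and 5 CPM, and 19 below 1 CPM. *Cxcl12* alone held 46.5% of all counts given to the family, and *Cxcl12*, *Ccl27a*, *Ackr3*, and *Ccl25* together held 76.9%. Summed over all members, the family came to 88.0 to 175.9 CPM per library.

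Set per length of annotated exon, which allows genes to be compared, the order of mean levels began with *Ccl27a* at 8.50, *Cxcl12* at 7.20, and *Ackr3* at 4.00 CPM per kb. *Ccl19-ps1* at 2.59, *Ccl19* at 2.11, and *Cxcl16* at 1.60 CPM per kb followed. By mean, the highest conventional receptor was *Ccr8*, a receptor of T cells, at 0.444 CPM per kb (0 to 27 counts per library). The members above it on this scale were chemokines, a chemokine pseudogene, and *Ackr3*. *Ccr8* ranged from 0.297 to 0.614 CPM per kb over the groups and *Ccr10* from 0.349 to 0.488, so these receptors cannot be ordered. *Ccl27a* and *Cxcl12* cannot be ordered, since their ranges over the groups overlapped.

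**Figure D1:**
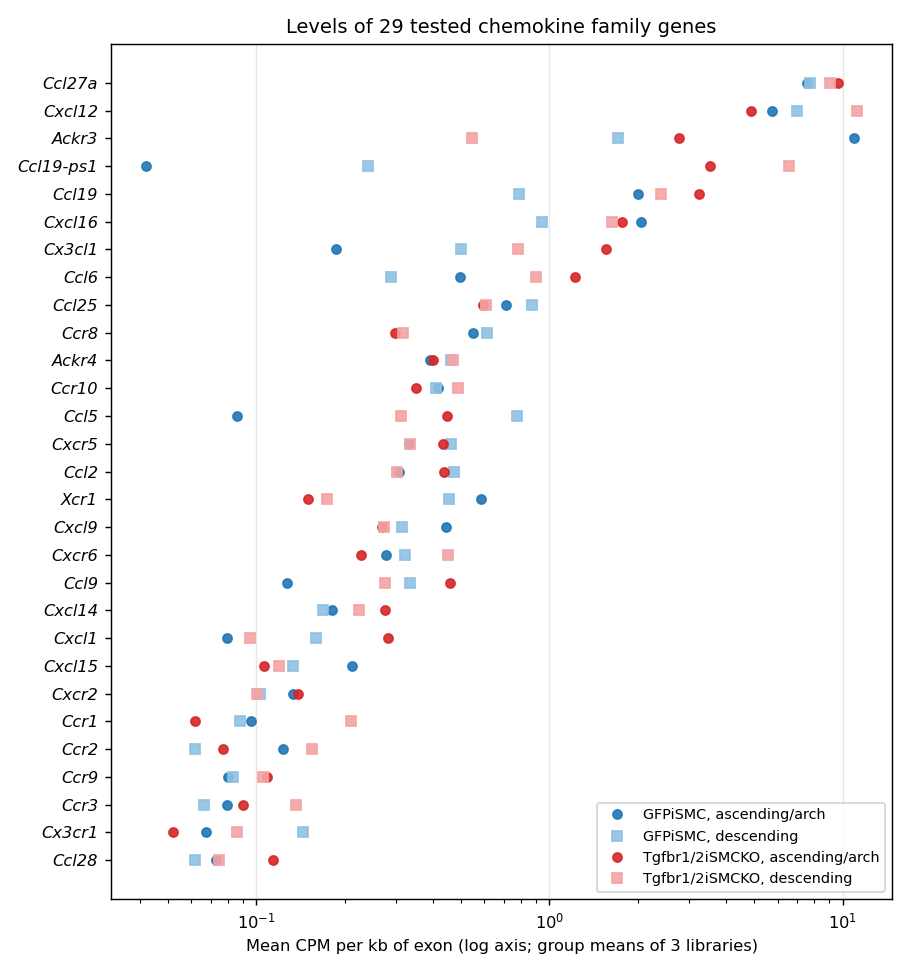
Mean CPM per kb of exon (log axis) of 29 tested chemokine family genes in the 4 groups, each point a mean of 3 libraries. *Ackr3* spans 0.546 to 10.98 CPM per kb over the groups and *Ccl19-ps1* 0.0421 to 6.56, while *Ccl27a* stays between 7.56 and 9.66.

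Between genotypes over all 12 libraries, with segment as a covariate, 2 of the 30 tested members were called (adjusted p under 0.05 and beyond 2-fold). *Ackr3* was lower and the pseudogene *Ccl19-ps1* was higher in Tgfbr1/2iSMCKO SMCs. Of all 22320 genes tested, 2.67% were called, 1.64% lower and 1.03% higher. Without adjustment, edgeR gave 5 members a p under 0.05: these 2 together with *Xcr1*, *Ccl19*, and *Cx3cl1*. That share of the 30 is near the background, since 16.1% of all tested genes had such a p. Log2 fold changes were above 0 for 20 members and below 0 for 10, with a median of 0.25 against 0.04 for all tested genes. By role, 12 of 16 chemokines, 7 of 12 conventional receptors, and 1 of 2 atypical receptors lay above 0.

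**Figure D2:**
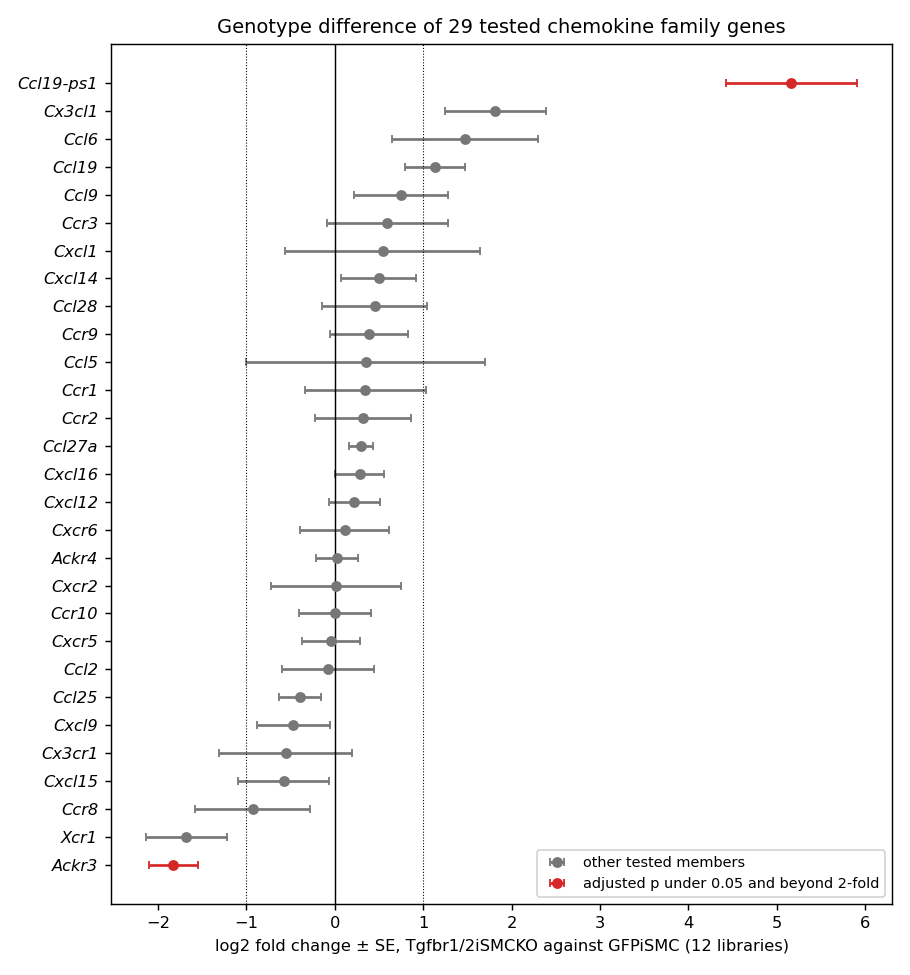
Log2 fold change of Tgfbr1/2iSMCKO against GFPiSMC for 29 tested members, with bars of ± 1 SE and dotted lines at 2-fold. *Ackr3* at -1.83 and *Ccl19-ps1* at 5.16 are the 2 called members, and the error bars are wide for members of low level such as *Ccl5* (SE 1.35).

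*Ackr3* (ENSMUSG00000044337.5, chr1:90203980-90216751, plus strand, GRCm38) differed with both genotype and segment. In the ascending/arch it measured 42.2, 30.2, and 37.9 CPM in GFPiSMC replicates 1 to 3 and 13.1, 8.01, and 6.60 CPM in Tgfbr1/2iSMCKO. In the descending segment, GFPiSMC libraries held 3.72, 7.47, and 6.07 CPM and Tgfbr1/2iSMCKO libraries 2.69, 1.81, and 0.978 CPM. Every Tgfbr1/2iSMCKO library thus lay below every GFPiSMC library of its own segment, and the Tgfbr1/2iSMCKO ascending/arch overlapped with the GFPiSMC descending segment. The genotype difference in *Ackr3* was -1.83 ± 0.28 on the log2 scale (SE, 12 libraries; edgeR adjusted p = 0.00129). With the counts of both segments summed to 1 value per animal, the difference was -1.92 (adjusted p = 0.0227, n = 3 animals per genotype, edgeR). A test against a change of 2-fold, in place of no change, gave an adjusted p of 0.117.

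Within segments, the *Ackr3* difference between genotypes was -1.99 ± 0.40 in the ascending/arch (adjusted p = 0.0281) and -1.66 ± 0.41 in the descending segment (adjusted p = 0.0705). The difference of these effects was 0.33 ± 0.56 (adjusted p = 1.0), so the effects were not shown to differ. The call in the ascending/arch was lost when any animal other than Tgfbr1/2iSMCKO replicate 1 was left out (adjusted p = 0.0619 to 0.134), while the difference stayed between -2.33 and -1.80.

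*Ackr3* was also the member called between segments. In GFPiSMC mice it was lower in the descending than in the ascending/arch SMCs by 2.67 ± 0.41 on the log2 scale (log2 fold change -2.67, adjusted p = 0.0146), and 1 of 30 members was called against 0.372% of all genes. In Tgfbr1/2iSMCKO mice the same comparison gave -2.34 ± 0.41 (adjusted p = 0.0627), and 0 members were called against 0.108% of all genes, with 2 members and 3.68% of all genes at an unadjusted p under 0.05 by edgeR. DESeq2 called *Ackr3* among 145 of the 22320 genes. The libraries of the segments did not overlap in either genotype. Leaving out GFPiSMC replicate 1, 2, or 3 took the adjusted p in GFPiSMC to 0.264, 0.0885, and 0.169. Fibroblast markers moved with segment in the same direction. The 6 of them summed to 176 to 206 CPM in the ascending/arch and 55.7 to 70.0 CPM in the descending segment of GFPiSMC mice, and to 112 to 247 CPM and 27.3 to 54.0 CPM in Tgfbr1/2iSMCKO mice. Between segments of GFPiSMC mice, *Lum* was called (log2 fold change -3.89, edgeR adjusted p = 0.0146). The other markers were not called, and all 6 had segment changes below 0. None of the 6 was at 0 in all libraries, and none was called between genotypes (median log2 fold change 0.06), though *Col14a1* passed the test below 2-fold (-0.82, adjusted p = 0.0316). Their part in the *Ackr3* difference between segments was not tested. In RNA from sorted bulk cells, fewer cells of a type and less RNA per cell cannot be told apart.

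**Figure D3:**
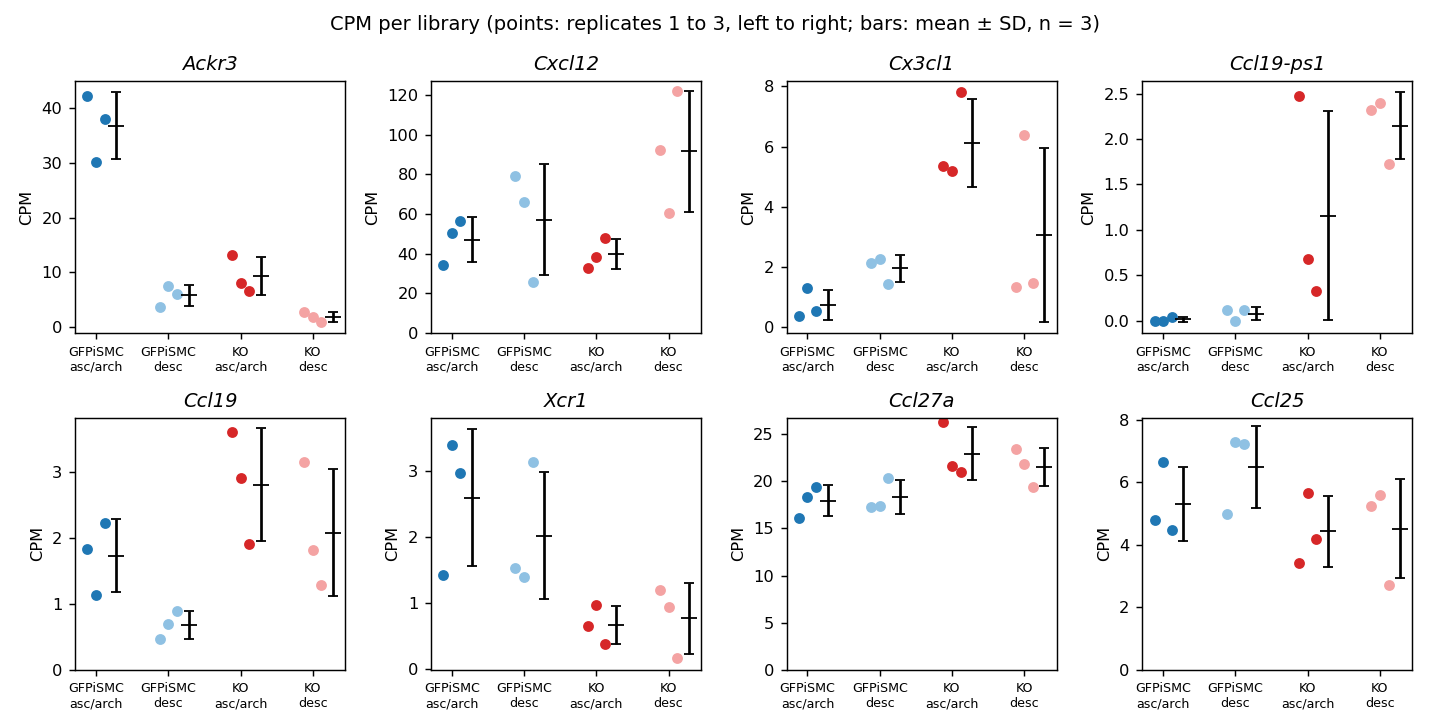
CPM in every library of 8 members by genotype (KO, Tgfbr1/2iSMCKO) and segment, with points for replicates 1 to 3 and bars for mean ± SD (n = 3). *Ackr3* is lower in Tgfbr1/2iSMCKO than in GFPiSMC libraries of the same segment, *Ccl19-ps1* is near 0 in all 6 GFPiSMC libraries, and *Cx3cl1* is high in 4 of 6 Tgfbr1/2iSMCKO libraries.

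The ligand shared by *Ackr3* and *Cxcr4* held the most counts of the family. *Cxcl12* (chr6:117168535-117181367, plus strand) measured 34.2, 50.4, and 56.7 CPM in the GFPiSMC ascending/arch and 79.2, 66.2, and 25.6 CPM in the GFPiSMC descending segment. In Tgfbr1/2iSMCKO mice it measured 32.9, 38.4, and 47.9 CPM in the ascending/arch and 92.3, 60.5, and 121.7 CPM in the descending segment. The genotypes overlapped in both segments, and the genotype difference was 0.22 ± 0.29 (adjusted p = 0.824). All 3 descending libraries exceeded all 3 ascending/arch libraries in Tgfbr1/2iSMCKO but not in GFPiSMC mice, and the segment difference in Tgfbr1/2iSMCKO mice of 1.20 ± 0.38 did not pass the test (adjusted p = 0.733). *Cxcr4*, the signaling receptor of CXCL12, was not tested, with 0 to 12 counts per library and a count in 10 of 12. By group means, *Cxcl12* in the descending segment was 57.0 ± 28 CPM in GFPiSMC and 91.5 ± 30.6 CPM in Tgfbr1/2iSMCKO SMCs (SD, n = 3), beside *Ackr3* at 5.75 ± 1.89 and 1.83 ± 0.86 CPM. This *Cxcl12* difference did not pass the test (0.68 ± 0.38, edgeR adjusted p = 0.599). In the ascending/arch, *Cxcl12* was at 47.1 ± 11.6 and 39.7 ± 7.59 CPM, beside *Ackr3* at 36.8 ± 6.09 and 9.25 ± 3.44 CPM.

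*Cx3cl1* (ENSMUSG00000031778.13, chr8:94772009-94782427, plus strand) was the other chemokine with a call. In the ascending/arch it measured 0.367, 1.3, and 0.537 CPM in GFPiSMC and 5.35, 5.19, and 7.80 CPM in Tgfbr1/2iSMCKO replicates 1 to 3. The descending segment held 2.15, 2.28, and 1.45 CPM in GFPiSMC and 1.33, 6.39, and 1.48 CPM in Tgfbr1/2iSMCKO. The genotypes were far apart in the ascending/arch, whereas in the descending segment only Tgfbr1/2iSMCKO replicate 2 lay above the GFPiSMC libraries. The difference was 3.04 ± 0.66 in the ascending/arch (adjusted p = 0.0435), 0.64 ± 0.61 in the descending segment (adjusted p = 0.854), and 1.82 ± 0.57 over the 12 libraries (adjusted p = 0.0993). With counts summed per animal the difference was called (1.82, edgeR adjusted p = 0.0400), as it was by DESeq2 (adjusted p = 0.0075), and over all alternatives the adjusted p ran from 0.0075 to 1.0. Without Tgfbr1/2iSMCKO replicate 2, the descending difference was -0.48. The ascending/arch call was lost without any animal other than Tgfbr1/2iSMCKO replicate 2 (adjusted p = 0.0765 to 0.237). The difference of the genotype effects between segments was -2.40 ± 0.88 (adjusted p = 1.0), so the 2 segments were not shown to differ.

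In the ascending/arch 3 of the 30 members were called (*Ackr3*, *Ccl19-ps1*, and *Cx3cl1*) against 1.15% of all genes, and in the descending segment 1 (*Ccl19-ps1*) against 1.42%. For the difference between segments in the genotype effect, edgeR called 0 members and 0% of all genes. At an unadjusted p under 0.05 this test gave 2 members, *Cx3cl1* and *Ccl9*, against 2.95% of all genes. For the same difference, DESeq2 called 0 members and 8 of 22320 genes. *Ccl9*, a CC chemokine of myeloid cells named here after its values were seen, measured 0.257 to 0.454 CPM in GFPiSMC and 0.483 to 2.43 CPM in Tgfbr1/2iSMCKO ascending/arch SMCs (1.83 ± 0.64, adjusted p = 0.260).

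Endothelial cells are a known source of *Cx3cl1*, and the 6 endothelial markers summed to 66.9 to 89.9 and 76.2 to 100.1 CPM in the ascending/arch and descending libraries of GFPiSMC mice. In Tgfbr1/2iSMCKO mice they summed to 54.4 to 104 and 77.7 to 92.6 CPM. *Pecam1* (log2 fold change -0.13) made up most of each sum, while the other 5 markers had log2 fold changes above 0, and the median of the list was 0.95. *Cdh5*, encoding VE-cadherin, was the 1 marker of 6 called between genotypes, at 0 to 0.513 CPM in GFPiSMC and 0.497 to 2.71 CPM in Tgfbr1/2iSMCKO libraries (log2 fold change 2.97, adjusted p = 0.025). None of the 6 was at 0 in all libraries, and their part in the *Cx3cl1* difference was not tested. *Cx3cr1*, the receptor, was at 0 to 1.15 CPM in GFPiSMC and 0.172 to 0.580 CPM in Tgfbr1/2iSMCKO libraries (-0.56 ± 0.75, adjusted p = 0.830).

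*Ccl19-ps1* (ENSMUSG00000082902.3, chr4:41921405-41923020, plus strand) is annotated as an unprocessed pseudogene of *Ccl19* (ENSMUSG00000071005.7, chr4:42754525-42756577, minus strand), the ligand of *Ccr7* that guides T cells and dendritic cells. Its 327 exonic bases match bases 214 to 540 of a *Ccl19* transcript in GENCODE M21 with 4 mismatches, an identity of 98.8%. Counted from base 1 of the stretch, with the *Ccl19* base first, these are T2C, C68A, C118T, and A267C. The first turns the start codon ATG of *Ccl19* into ACG, and in both genes the first stop codon in this frame begins at base 325. Bases 1 to 280 are shown because they carry all 4 mismatches (capitals) and show how little within this stretch separates a read of one gene from a read of the other.
Ccl19: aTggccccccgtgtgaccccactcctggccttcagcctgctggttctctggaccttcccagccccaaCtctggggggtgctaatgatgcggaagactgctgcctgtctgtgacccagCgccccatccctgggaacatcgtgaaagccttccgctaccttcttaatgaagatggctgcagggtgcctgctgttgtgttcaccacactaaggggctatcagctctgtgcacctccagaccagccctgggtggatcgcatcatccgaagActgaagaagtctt
Ccl19-ps1: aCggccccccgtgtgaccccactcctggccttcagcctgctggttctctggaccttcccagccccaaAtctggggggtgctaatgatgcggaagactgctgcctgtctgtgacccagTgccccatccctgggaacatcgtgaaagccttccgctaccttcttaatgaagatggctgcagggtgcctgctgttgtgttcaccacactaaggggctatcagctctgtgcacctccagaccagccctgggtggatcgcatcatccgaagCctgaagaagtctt

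*Ccl19-ps1* had 0, 0, and 1 counts in the GFPiSMC ascending/arch and 3, 0, and 3 counts in the GFPiSMC descending segment. The Tgfbr1/2iSMCKO libraries held 72, 14, and 10 counts in the ascending/arch and 56, 58, and 51 counts in the descending segment. Every Tgfbr1/2iSMCKO library lay above every GFPiSMC library in both segments. Over all libraries, 7 counts stood against 261, a ratio of 37.6 after scaling for library size (95% exact interval 18.0 to 94.4, counting error only). In the ascending/arch 1 count stood against 96 (ratio 95.8, 16.8 to 3823), and in the descending segment 6 against 165 (28, 12.6 to 77.4). The fitted log2 difference was 5.16 ± 0.74 (edgeR adjusted p = 0.00085), with an adjusted p of 0.0268 in the ascending/arch and 0.0312 in the descending segment. The ascending/arch call was lost without any animal other than Tgfbr1/2iSMCKO replicate 3 (adjusted p = 0.0597 to 0.166), and the descending call without any animal other than that same replicate (0.0828 to 0.149).

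*Ccl19* itself, named after its values were seen, measured 1.83, 1.13, and 2.23 CPM in the GFPiSMC and 3.60, 2.91, and 1.90 CPM in the Tgfbr1/2iSMCKO ascending/arch. The descending segment held 0.460, 0.701, and 0.884 CPM in GFPiSMC and 3.15, 1.81, and 1.28 CPM in Tgfbr1/2iSMCKO SMCs. The genotypes overlapped in the ascending/arch but not in the descending segment. The difference over the 12 libraries was 1.13 ± 0.34 (adjusted p = 0.0824), and within the descending segment 1.60 ± 0.47 (adjusted p = 0.157). Since the counts of *Ccl19* and *Ccl19-ps1* may share reads, the values of both genes are uncertain. *Ccr7*, the receptor of CCL19, had 0 to 9 counts per library and was not tested. *Ackr4*, which scavenges this ligand, was at 1.65 to 3.58 CPM in all libraries (0.03 ± 0.24, adjusted p = 0.981).

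*Ccl27a* (chr4:41769467-41774247, minus strand), a chemokine of skin epithelium and the ligand of *Ccr10*, varied little among libraries. It measured 16.1, 18.4, and 19.4 CPM in the GFPiSMC and 26.3, 21.6, and 21 CPM in the Tgfbr1/2iSMCKO ascending/arch. In the descending segment it measured 17.3, 17.4, and 20.4 CPM and 23.4, 21.8, and 19.4 CPM. The genotypes did not overlap in the ascending/arch and overlapped in the descending segment, and the difference of 0.29 ± 0.14 did not pass the test (adjusted p = 0.318). *Ccr10* was at 0.372 to 0.990 CPM in GFPiSMC and 0.243 to 1.37 CPM in Tgfbr1/2iSMCKO libraries (0.01 ± 0.41, adjusted p = 0.998).

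*Ccl25* (chr8:4325210-4360020, plus strand), a thymic and intestinal chemokine that binds *Ccr9*, measured 4.80, 6.66, and 4.46 CPM in the GFPiSMC ascending/arch and 4.99, 7.29, and 7.23 CPM in the GFPiSMC descending segment. Tgfbr1/2iSMCKO libraries held 3.43, 5.68, and 4.19 CPM and 5.26, 5.61, and 2.70 CPM in these segments. The genotypes overlapped in both, with a difference of -0.39 ± 0.24 (adjusted p = 0.503). *Ccr9* was at 0.421 to 1.49 CPM and 0.258 to 1.89 CPM in the genotypes.

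The following members were also chosen after their values were seen. *Cxcl16*, a membrane-bound chemokine and scavenger receptor that binds *Cxcr6*, measured 6.86, 6.80, and 5.00 CPM in the GFPiSMC ascending/arch and 3.49, 3.05, and 2.01 CPM in the GFPiSMC descending segment. In Tgfbr1/2iSMCKO mice it measured 5.66, 5.63, and 4.77 CPM and 5.55, 2.89, and 6.38 CPM. The segments were apart in GFPiSMC and overlapped in Tgfbr1/2iSMCKO mice, but neither the segment difference in GFPiSMC mice (-1.12 ± 0.35, adjusted p = 0.465) nor the interaction (1.01 ± 0.49, adjusted p = 1.0) passed the test. *Cxcr6* was at 0.193 to 1.73 CPM in all libraries.

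*Xcr1*, the receptor for XCL1 that marks cross-presenting dendritic cells, measured 1.43, 3.40, and 2.97 CPM in the GFPiSMC and 0.652, 0.971, and 0.387 CPM in the Tgfbr1/2iSMCKO ascending/arch. In the descending segment it measured 1.53, 1.40, and 3.13 CPM in GFPiSMC and 1.20, 0.948, and 0.169 CPM in Tgfbr1/2iSMCKO SMCs. No Tgfbr1/2iSMCKO library reached the lowest GFPiSMC library, and the difference was -1.68 ± 0.45 (edgeR adjusted p = 0.0512, DESeq2 adjusted p = 0.00348, and 0.0459 by limma-voom, with libraries of 1 animal treated as correlated). Its ligand *Xcl1* had 0 to 4 counts per library. The 3 dendritic cell markers (*Flt3*, *Itgax*, and *Cd209a*) summed to 0.770 to 2.56 and 0.643 to 1.26 CPM in the ascending/arch and descending segments of GFPiSMC mice and to 0.226 to 1.26 and 0.169 to 0.994 CPM in Tgfbr1/2iSMCKO mice. None was at 0 in all libraries, and of the 2 that could be tested neither was called. Both were below 0, with log2 fold changes of -0.76 for *Flt3* (edgeR adjusted p = 0.702) and -1.52 for *Itgax* (edgeR adjusted p = 0.506). The part of these markers in the *Xcr1* values was not tested.

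Several chemokines of inflammation were at low levels in both genotypes. *Ccl2*, the main attractant of monocytes, was at 0.183 to 0.924 CPM in GFPiSMC and 0.202 to 0.825 CPM in Tgfbr1/2iSMCKO libraries (-0.08 ± 0.52, adjusted p = 0.973), and its receptor *Ccr2* at 0.307 to 1.10 CPM and 0.243 to 1.61 CPM (0.32 ± 0.54, adjusted p = 0.878). *Ccl5*, which attracts T cells and monocytes, was without a count in 5 of 12 libraries and reached 2.07 CPM in GFPiSMC descending replicate 1. *Ccl6*, a chemokine of macrophages, was uneven among replicates, with 0 to 1.29 CPM in GFPiSMC and 0.248 to 4.18 CPM in Tgfbr1/2iSMCKO libraries (1.48 ± 0.83, adjusted p = 0.439). Among the untested neutrophil attractants, *Cxcl2* and *Cxcl5* did not exceed 4 and 15 counts in a library, and the interferon-induced *Cxcl10* did not exceed 10. The 10 macrophage markers, whose cells carry *Ccr2* and *Cx3cr1*, summed to 7.15 to 15.7 CPM in GFPiSMC descending and 9.36 to 25.6 CPM in Tgfbr1/2iSMCKO descending libraries, and to 11.1 to 13.2 and 11.4 to 18.8 CPM in the ascending/arch. None was called (median log2 fold change 0.53) and none was at 0 in all libraries. The 6 T and NK cell markers summed to 0.371 to 2.07 CPM, the 4 B cell markers to 0.709 to 2.06 CPM, and the 4 neutrophil markers to 0.207 to 1.58 CPM.

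Many family genes lie in clusters near the floxed genes. Within 10 Mb of *Tgfbr1* on chromosome 4 were 7 members, 3 of them tested: *Ccl27a* at 5.58 Mb, *Ccl19-ps1* at 5.43 Mb, and *Ccl19* at 4.6 Mb. Within 10 Mb of *Tgfbr2* on chromosome 9 were 12 members, 9 of them tested, among them *Cx3cr1* at 3.73 Mb and *Xcr1* at 7.68 Mb. Of the 12 tested members in these regions, 1 was called, against 4.56% of the 482 tested genes there. Around *Tgfbr1*, where the called *Ccl19-ps1* lies, 11 of 172 tested genes were called (6.4%), and around *Tgfbr2* 11 of 310 (3.55%). The called genes around *Tgfbr1* changed in both directions. Among them, *Col15a1* (log2 fold change -6.62), *Gm12407* (-6.55), and *Fam205a1* (-3.98) were lower, and *Gm12503* (4.21) and *Gm12504* (2.33) were higher. *Col15a1* had the lowest adjusted p of them (1.22e-06, edgeR). Of the 18 tested members elsewhere, 1 was called (*Ackr3*, on chromosome 1), against 2.63% of the genes there. The floxed alleles were present in Tgfbr1/2iSMCKO mice only, so the deletion of the receptors and the origin of the chromosome around each floxed gene cannot be told apart for these members.

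**Figure D4:**
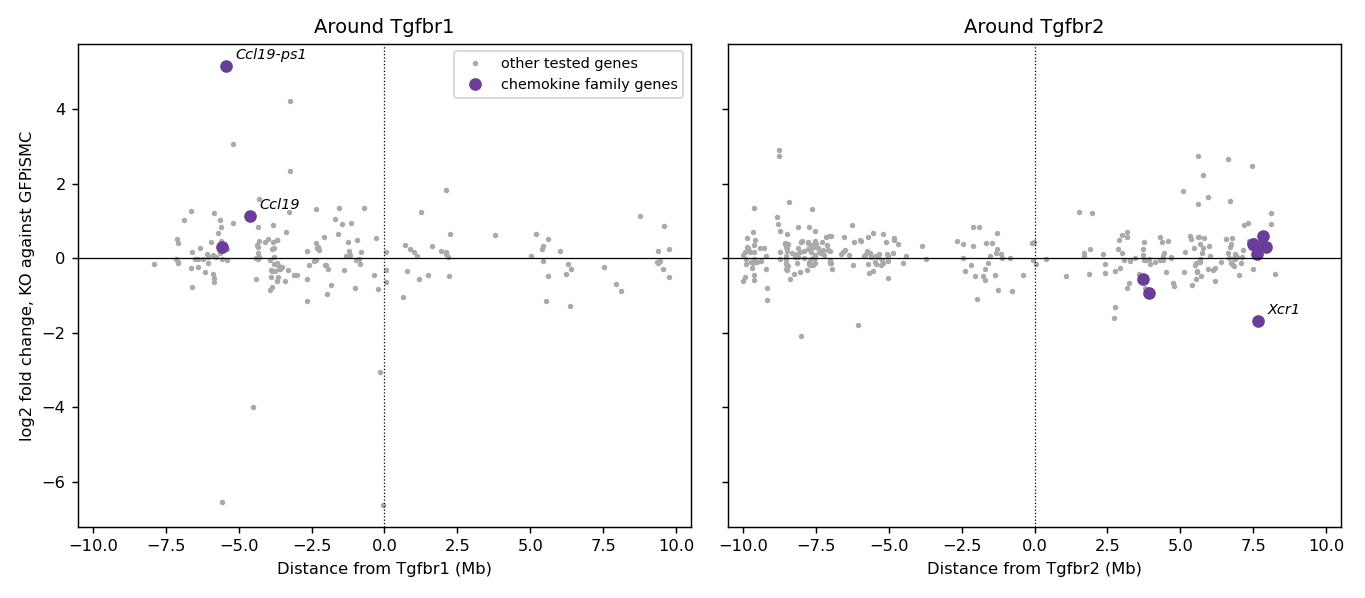
Log2 fold change of Tgfbr1/2iSMCKO (KO) against GFPiSMC for tested genes within 10 Mb of *Tgfbr1* (left) or *Tgfbr2* (right), plotted against distance in Mb. Chemokine family genes are in purple, with names for those beyond 2-fold: *Ccl19-ps1* at 5.16, *Ccl19* at 1.13, and *Xcr1* at -1.68.

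Exons of 7 tested members overlap another annotated gene, and no source used here states that counting used strand. For *Cxcl16*, 18.3% of its exonic bases lie in *Zmynd15* (0.810 CPM), and for *Ccr9*, 18.8% lie in a transcript of the opposite strand (0.105 CPM). *Ccr9* also shares 2.62% with the noncoding gene *Gm17200* on the same strand, at 6.66 CPM beside a mean of 0.970 CPM for *Ccr9*. *Ackr4* shares 8.90% with *Acad11*, *Cxcr5* 3.30% with *Bcl9l*, and *Ccl25* 2.74% with *Elavl1*, which itself stood at 163 CPM. Reads from these shared bases cannot be given to one gene. *Ackr3* and *Cx3cl1* had no such overlap.

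Around the family, 29 of 30 genes of chemokine receptor signaling could be tested (G protein subunits, arrestins, receptor kinases, and regulators of G protein signaling). Between genotypes 2 were lower, 1 was higher, and 26 were not called, with a median log2 fold change of 0.01. Of all 22320 tested genes, 2.67% were called in this comparison. *Elmo1*, an adaptor of Rac activation downstream of Gi-coupled receptors, rose from 4.78 to 7.74 CPM in GFPiSMC to 27.9 to 48.6 CPM in Tgfbr1/2iSMCKO libraries (2.62 ± 0.17, edgeR adjusted p = 6.49e-07). *Rgs5*, which shortens G protein signals in SMCs and pericytes, fell from 2341 to 4917 CPM to 829 to 2193 CPM (-1.52 ± 0.21, adjusted p = 0.000701). The 3 pericyte markers summed to 493 to 567 and 479 to 590 CPM in the ascending/arch and descending libraries of GFPiSMC mice and to 260 to 701 and 659 to 818 CPM in Tgfbr1/2iSMCKO mice. Of the 2 that could be tested, *Kcnj8* was called higher (32.5 to 87.0 against 95.7 to 187 CPM, log2 fold change 1.3, adjusted p = 0.0062) and *Abcc9* was not (0.05), and none of the 3 was at 0 in all libraries. Their part in the *Rgs5* difference was not tested. *Pik3r6*, a regulatory subunit of the PI3Kγ that G protein βγ subunits activate, fell from 1.23 to 5.13 CPM to 0.621 to 1.84 CPM (-1.35 ± 0.34, adjusted p = 0.0364). *Rgs4*, of the same family as *Rgs5*, passed the test below 2-fold (-0.63 ± 0.14, adjusted p = 0.0152). Of the 22 inducers of chemokine genes (NF-κB subunits and inhibitors, inflammatory cytokines, and their receptors), 17 were tested. Among these, 0 were called by edgeR, against 2.67% of all tested genes, with a median of -0.08. Below 2-fold, *Hif1a* (-0.71), *Rel* (-0.88), and *Il1r1* (-0.53) had an adjusted p of 0.0105, 0.0491, and 0.0140. The 2.67% counts changes beyond 2-fold and is no background for these genes or for *Rgs4*. *Il1b*, *Tnf*, and *Ifng* were too low to test, at no more than 0.309 CPM in any library.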

How the data were processed

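Bulk RNA-seq of GFP-sorted aortic SMCs was analyzed in 12 libraries (3 animals per genotype, 2 segments each). To make the table, the authors ran Trim Galore 0.5.0 for trimming and HISAT2 2.1.0 for alignment (genome build GRCm38), then StringTie 1.3.3b on the GENCODE M15 annotation. The deposited values are whole-number counts per gene, not normalized, and how coverage became counts is not given in the sources used here. A count of 2 occurred in 32279 pairs of gene and library and a count of 1 in 22574, so a count may not be 1 independent fragment and intervals from counts may be too narrow. No source used here mentions molecular identifiers. Symbols, coordinates, exon lengths, and sequences came from GENCODE M21, which named 52489 of 52636 genes.

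Genes were tested with edgeR 4.0.16 in R 4.3.3: filterByExpr on the 4 groups, TMM factors, quasi-likelihood fits, and Benjamini-Hochberg adjustment over 22320 genes. The genotype fit had segment as a covariate, and a fit of 4 group means gave the within-segment, interaction, and segment contrasts. Adjusted p values are from edgeR unless DESeq2 is named. Each SE was obtained by dividing the log2 fold change by the root of its F statistic. Called genes had a change beyond 2-fold and an adjusted p under 0.05 (adjusted p alone for the interaction). The common biological coefficient of variation was 0.442. CPM used TMM library sizes. With 3 animals per genotype, an exact permutation test of a single value could not reach 0.05 and was not used. The 12-library fit treats both segments of an animal as separate samples.

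Values in every library were planned for tested members with a mean of at least 5 CPM and for members called in any comparison. Members and lists were chosen with earlier results of these data known. Alternatives were DESeq2 1.42.0, limma 3.58.1 (voom, animal as random effect), other scaling and filters, each segment fitted alone, counts summed per animal, a test against 2-fold, replicate blocks, and leaving out each animal. A genotype and number in the labels identified the 2 segments of 1 animal. After removal of group means their correlation over 9210 genes was 0.187, -0.242, and 0.0240 in GFPiSMC and 0.0612, 0.377, and 0.661 in Tgfbr1/2iSMCKO replicates 1 to 3. The fitting script was tested on simulated data. The values of 1 tested member are not reported here, though it is counted in the totals. Plots used Python 3.11.15 and matplotlib 3.10.9.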

Additional observations from a re-analysis of the deposited data

How the results depend on the processing

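The 16 differences of single members were recomputed under 227 combinations of result and alternative: 192 kept their direction and side of the threshold, 25 kept the direction but lost the call, 9 gained it, and 1 reversed. Between genotypes over 12 libraries, 2 members were called with edgeR (among 596 genes), 5 with DESeq2 (with *Ccl19*, *Cx3cl1*, and *Xcr1*, among 842), 3 with counts summed per animal (with *Cx3cl1*, among 380), 3 with limma-voom (with *Xcr1*, among 544), 1 in a test against 2-fold (*Ccl19-ps1*, among 137), and 1 among 571 when genes within 10 Mb of *Tgfbr1* or *Tgfbr2* were left out of the fit, an alternative added after the data were seen (*Ackr3*). Leaving out each animal gave 2 to 3 (among 438 to 632). In the ascending/arch, the count of 3 (among 257 genes) became 0 to 1 (among 120 to 206) without single animals. In the descending segment, the count of 1 (among 317) became 3 with DESeq2 (among 635). Without single animals it became 0 to 1 (among 131 to 283). Between segments in GFPiSMC, the count of 1 (among 83) became 0 to 1 without single animals (among 6 to 85). Between segments in Tgfbr1/2iSMCKO, 0 (among 24) became 1 with DESeq2 (among 145) and 1 without a filter on low counts (among 46), *Ackr3* in both. The *Cx3cl1* difference in the descending segment ranged from -0.48 (without Tgfbr1/2iSMCKO replicate 2, reversed) to 1.00 (without Tgfbr1/2iSMCKO replicate 1). The causes of these changes were not tested, and a fit without 1 animal also has fewer samples.

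Replicate numbers are only a number between genotypes. With the replicate block, 2 members were called over 12 libraries (among 570 genes) and *Ackr3* differed by -1.90. In the ascending/arch *Ccl19-ps1* then missed the threshold (5.82, adjusted p = 0.0587 by edgeR). With the animal as replicate block, the calls between segments remained 1 in GFPiSMC (among 72 genes) and 0 in Tgfbr1/2iSMCKO (among 16). Scaling by library size alone moved the median of all genes between genotypes from 0.04 to 0.16. Of the 70 members, 40 had too few counts to be tested.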

Other observations

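Genes that bind, trim, or resemble chemokines were counted in the same fit. Of 16 genes for chemokine processing and other chemoattractants, 15 were tested, with a median log2 fold change of -0.11. Between genotypes, 1 was lower (adjusted p under 0.05 and beyond 2-fold) and 14 were not called, against 2.67% called of all tested genes. The lower gene was *Ext1*, encoding a glycosyltransferase that elongates heparan sulfate, the sugar chain on which many chemokines are held at cell surfaces. It lay at 191 to 226 CPM in GFPiSMC and 65.2 to 81.2 CPM in Tgfbr1/2iSMCKO libraries (-1.54, edgeR adjusted p = 3.43e-07), with no overlap. *Ndst1*, which sulfates heparan sulfate, and *Sdc4*, a heparan sulfate proteoglycan, passed the test below 2-fold, where the 2.67% is no background. *Ndst1* lay at 25.8 to 41.6 CPM and 14.4 to 21.3 CPM (-0.81, adjusted p = 0.00793), and *Sdc4* at 445 to 477 CPM and 234 to 348 CPM (-0.64, adjusted p = 0.00234). *Sdc2*, the other abundant syndecan, was at 303 to 345 CPM and 278 to 318 CPM (-0.11, adjusted p = 0.592). *Rarres2*, encoding the attractant chemerin, was at 641 to 995 CPM in GFPiSMC and 683 to 1012 CPM in Tgfbr1/2iSMCKO libraries (0.03, adjusted p = 0.943).

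Among the receptor signaling genes, *Gng2*, a G protein γ subunit singled out after its values were seen, differed between segments. Its mean was 12.8 ± 7.76 CPM in the ascending/arch and 0.0351 ± 0.0607 CPM in the descending segment of GFPiSMC mice (SD, n = 3), the latter under the limit of 3 counts, with an edgeR adjusted p of 0.00171. In Tgfbr1/2iSMCKO mice the means were 7.13 ± 2.39 and 0.480 ± 0.101 CPM. The fibroblast markers also summed to less in the descending segment of both genotypes, and their part in the *Gng2* difference was not tested. Tests of *Gng2* without single animals are not given here.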
